A study of Mus musculus with 6 samples.

Results

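The CC and CX3C chemokine genes examined were Ccl2, Ccl5, Ccl7, Ccl8, Ccl9, Ccl11, Ccl17, Ccl20, Ccl25 and Cx3cl1, compared between PIM1 and EV cells. A gene entered if a probe set of the array was annotated to its symbol alone, and all 10 listed genes had exactly 1 such probe set, among 22180 genes measured this way. The samples were 3 arrays of PIM1 cells (lentivirus carrying PIM1, a serine/threonine kinase) and 3 arrays of EV cells (the control lentivirus with no insert). Both groups were the same kind of cell, labelled as prostate epithelial cancer cells of Rb1F/F:Trp53F/F:PB-Cre4 mice, in which Cre made from the prostate-directed probasin promoter deletes floxed Rb1 and Trp53. PIM1 cells and EV cells therefore shared both deletions and the growth medium, which held charcoal-stripped serum, epidermal growth factor and cholera toxin. The labels give no age of the mice, no clone or pool of cells, no species of the PIM1 insert and no separate cultures for the arrays of a group, so p-values cover only the variation among these arrays, possibly a technical one.

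Chemokines are small secreted proteins that draw leukocytes along a gradient by binding G protein-coupled receptors on them. In CC chemokines the first cysteines of the mature protein are adjacent, whereas in CX3C chemokines other residues stand between them, and Cx3cl1 (fractalkine) is also made as a membrane-bound form on a mucin-like stalk. In epithelial and stromal cells many of these genes are known to be induced by inflammatory signals, and in tumours their products are studied for recruiting monocytes, T cells and eosinophils.

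Values are log2 signals, and each difference is PIM1 minus EV on that scale. "Rose" and "fell" mean an adjusted p under 0.05 in limma's moderated test, with Benjamini-Hochberg adjustment over all 22180 genes. Pim1 itself read 7.11, 6.89 and 6.97 on the PIM1 arrays and 5.26, 6.25 and 5.23 on the EV arrays, a rise of 1.41 (standard error 0.26, adjusted p = 0.00455, limma). A dimmer Pim1 probe set differed by 0.68 and did not pass (limma adjusted p = 0.0933 over all probe sets). The arrays correlated at 0.994 to 0.996 within PIM1, 0.990 to 0.991 within EV and 0.963 to 0.967 between the groups. The median over all genes lay between 3.98 and 4.03 on the PIM1 arrays and between 3.99 and 4.03 on the EV arrays. No detection call was used, so signals below that median hold an unknown share of background, and folds against them rest on it in part.

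Of the 10 chemokine genes, 7 rose in PIM1 cells, 0 fell and 3 did not pass (limma), and at an unadjusted p under 0.05 8 were higher and 0 lower, against 20.1% and 18.0% of all genes. Ccl5, Ccl2 and Ccl7 rose most, by 24.5-fold, 23.9-fold and 19.2-fold, followed by Cx3cl1 (8.09-fold), Ccl20 (4.59-fold), Ccl11 (2.71-fold) and Ccl9 (2.67-fold). Over all genes tested 27.0% passed, 16.1% as rises and 10.9% as falls. After quantile normalization the share of called genes that were higher in PIM1 was 47.0%, against 59.6% on the deposited values. A rise of at least 2-fold was called for 4.55% of all genes, and each of the 7 chemokine rises exceeded 2-fold. The median difference of the 10 chemokine genes was 1.82, and that of all genes was -0.05. For 8 of the 10 the lowest PIM1 array exceeded the highest EV array, as it did for 22.3% of all genes. These members were listed with earlier results of these data known, so their count is a description.

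**Figure D1:**
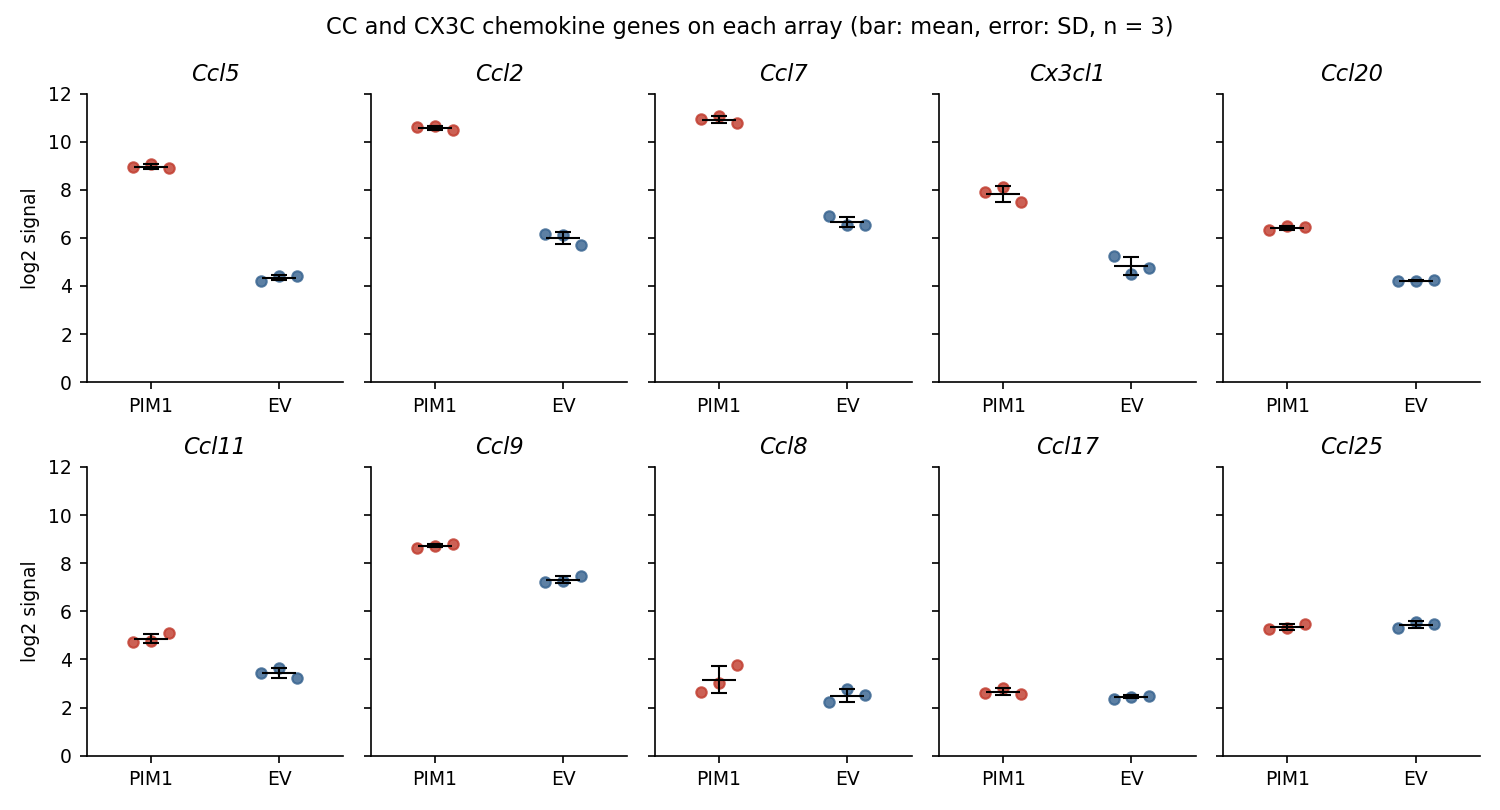
Log2 signal (vertical axis, 0 to 12) of each of the 10 chemokine genes on the 3 PIM1 arrays (left, red) and the 3 EV arrays (right, blue), with points for arrays, a bar for the mean and an error bar for the SD. The groups are far apart for Ccl5, Ccl2, Ccl7 and Cx3cl1, touch closely for Ccl17 and overlap for Ccl8 and Ccl25.

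Ccl2, Ccl7 and Ccl8 are the monocyte chemoattractant proteins among them. Ccl2, the main ligand of the monocyte receptor Ccr2, read 10.59, 10.64 and 10.48 on the PIM1 arrays and 6.16, 6.12 and 5.71 on the EV arrays. The lowest PIM1 array stood 4.33 above the highest EV array. The Ccl2 difference was 4.58 (95% confidence interval 4.26 to 4.90, limma adjusted p = 4.51e-07), which ranked 24 among the rises of all genes. Ccl7, which also binds Ccr2 and further binds Ccr1 and Ccr3, read 10.94, 11.05 and 10.76 in PIM1 and 6.90, 6.53 and 6.54 in EV. Its groups were separated by 3.87 and its difference was 4.26 (interval 3.95 to 4.57, limma adjusted p = 5.59e-07). Ccl8, which in the mouse signals through Ccr8, read 2.66, 3.03 and 3.77 in PIM1 and 2.21, 2.78 and 2.50 in EV. Its groups overlapped, because the lowest PIM1 array lay below the highest EV array, and the PIM1 arrays spread more widely (SD 0.56) than the EV arrays (SD 0.28). The Ccl8 difference of 0.65 (interval 0.03 to 1.28) did not pass (limma adjusted p = 0.117), and without PIM1 replicate 1 it was 0.90 and passed (limma adjusted p = 0.0467). Without PIM1 replicate 3, the array that read 3.77, the Ccl8 difference was 0.34 (limma adjusted p = 0.279).

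Ccl11, or eotaxin, attracts eosinophils through Ccr3. It read 4.74, 4.77 and 5.09 in PIM1 cells and 3.43, 3.65 and 3.21 in EV cells, so its EV signals lay below the array medians and its PIM1 signals above them. The groups did not overlap and the difference was 1.44 (interval 1.10 to 1.78, limma adjusted p = 0.000242).

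Ccl5, known as RANTES, draws T cells and monocytes through receptors that include Ccr1 and Ccr3. It read 8.94, 9.06 and 8.89 on the PIM1 arrays and 4.22, 4.40 and 4.43 on the EV arrays. The gap between the groups, 4.46, was far wider than the spread of either (SD 0.08 in PIM1 and 0.12 in EV, n = 3 each). The difference was 4.62 (interval 4.37 to 4.86, limma adjusted p = 1.53e-07), and it ranked 22 among the rises. Ccl9, a mouse ligand of Ccr1 on myeloid cells, read 8.65, 8.74 and 8.81 in PIM1 cells and 7.20, 7.26 and 7.48 in EV cells, above the array medians in both. The groups did not overlap and the difference was 1.42 (interval 1.16 to 1.67, limma adjusted p = 5.09e-05).

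Ccl20 is the ligand of Ccr6, found on dendritic cells, B cells and some T helper cells. It read 6.32, 6.49 and 6.44 in PIM1 cells and 4.20, 4.22 and 4.24 in EV cells, the narrowest EV spread of the 10 genes (SD 0.02). Its difference was 2.20 (interval 1.98 to 2.42, limma adjusted p = 2.55e-06).

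Promoter windows of 6 of the 10 genes were matched by symbol in RefSeq (assembly GRCm38.p6), those of Ccl8, Ccl9, Ccl17, Ccl20, Ccl25 and Cx3cl1, with 7 windows because Ccl25 had 2. The set of promoter windows used here had none for Ccl2, Ccl5, Ccl7 and Ccl11, although RefSeq gives positions for these genes. The 250 bases before the annotated start are shown for Ccl20 and Ccl9, which rose and hold a match to the NF-kappaB consensus, and for the neighbours Cx3cl1 and Ccl17, of which Cx3cl1 rose and Ccl17 did not pass. Capitals mark every motif match, and each sequence runs 5′ to 3′ along the gene's own strand.
Ccl20, chr1:83116516-83116765, plus strand: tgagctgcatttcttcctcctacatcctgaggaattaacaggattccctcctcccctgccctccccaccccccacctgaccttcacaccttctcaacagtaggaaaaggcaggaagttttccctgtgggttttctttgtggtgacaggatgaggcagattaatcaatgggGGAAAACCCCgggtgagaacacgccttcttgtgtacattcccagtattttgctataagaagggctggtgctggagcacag
Ccl9, chr11:83578637-83578886, minus strand: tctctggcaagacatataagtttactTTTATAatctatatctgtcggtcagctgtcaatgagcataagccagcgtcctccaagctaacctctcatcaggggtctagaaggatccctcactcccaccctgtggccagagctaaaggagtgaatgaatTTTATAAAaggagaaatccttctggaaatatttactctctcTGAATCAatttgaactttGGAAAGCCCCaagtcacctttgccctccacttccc
Cx3cl1, chr8:94771930-94772179, plus strand: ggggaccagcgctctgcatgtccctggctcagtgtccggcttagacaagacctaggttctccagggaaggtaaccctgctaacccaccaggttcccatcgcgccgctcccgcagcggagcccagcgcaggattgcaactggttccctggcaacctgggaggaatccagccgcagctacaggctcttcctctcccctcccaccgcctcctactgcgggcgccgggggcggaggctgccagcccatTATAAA
Ccl17, chr8:94810203-94810452, plus strand: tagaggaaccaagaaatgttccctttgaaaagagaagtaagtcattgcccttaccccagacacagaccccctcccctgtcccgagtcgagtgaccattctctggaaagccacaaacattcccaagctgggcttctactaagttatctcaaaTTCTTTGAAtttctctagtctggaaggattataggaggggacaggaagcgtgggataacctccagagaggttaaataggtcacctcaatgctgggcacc
Both strands were searched for the NF-kappaB consensus, AP-1 (TGANTCA), STAT (TTCNNNGAA), C/EBP (TTGCNNAA), the interferon-stimulated response element and the TATA box (TATAAA). In Ccl20 the capitals are an NF-kappaB match 80 to 71 bases before the start. In Ccl9 they are an NF-kappaB match at 35 to 26 bases, an AP-1 match at 53 to 47 bases, and TATA matches at 224 to 219 bases and, overlapping on opposite strands, between 94 and 87 bases. In Cx3cl1 the capitals are a TATA match in the last 6 bases before the start, and in Ccl17 a STAT match at 99 to 91 bases. The NF-kappaB consensus was found in 2 of the 7 windows of these genes and in 7.25% of all 32851 promoter windows. AP-1 was in 1 of the 7 and 6.75% of all, STAT in 1 and 7.02%, and TATA in 4 and 12.4%. C/EBP and the interferon element were in 0 of the 7 windows and in 9.56% and 2.98% of all windows. A match describes the letters in the window and is no evidence of binding.

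Cx3cl1, which tethers and attracts Cx3cr1-bearing monocytes and natural killer cells, read 7.91, 8.13 and 7.48 in PIM1 cells and 5.24, 4.50 and 4.73 in EV cells. Its spread was wide in both groups (SD 0.33 in PIM1 and 0.38 in EV), yet the groups were separated by 2.23. The difference was 3.02 (interval 2.50 to 3.53, limma adjusted p = 3.87e-05). Ccl17, a ligand of Ccr4 on T cells, read 2.59, 2.83 and 2.56 in PIM1 and 2.37, 2.46 and 2.50 in EV, all far below the array medians. Its groups stood apart by only 0.06, and the difference of 0.22 (interval -0.04 to 0.47) did not pass (limma adjusted p = 0.187). Ccl17 passed after quantile normalization (0.34, limma adjusted p = 0.0487) and cyclic loess (0.34, limma adjusted p = 0.0497). Without PIM1 replicate 2 the Ccl17 difference was 0.13 (limma adjusted p = 0.480).

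Ccl25, a ligand of Ccr9 best known from thymus and small intestine, read 5.28, 5.30 and 5.48 in PIM1 and 5.29, 5.56 and 5.49 in EV. The groups overlapped, with EV replicate 1 within the range of the PIM1 arrays and EV replicates 2 and 3 just above it. The difference was -0.10, and its interval of -0.36 to 0.16 leaves room for a fall or a rise of that size (limma adjusted p = 0.567). The Ccl25 difference was -0.32 after quantile normalization (limma adjusted p = 0.0554), -0.23 with cyclic loess, and between -0.18 and -0.04 with 1 array left out, where it was nearest to 0 without EV replicate 2 and lowest without EV replicate 1.

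No test between genes was run, so the order of Ccl5, Ccl2 and Ccl7, whose intervals overlapped, is not resolved. The interval of Cx3cl1 lay wholly below that of Ccl7 and wholly above that of Ccl20, and the Ccl20 interval lay wholly above that of Ccl11. The intervals of Ccl11 and Ccl9 overlapped, and among Ccl9, Ccl8, Ccl17 and Ccl25 each gene's interval overlapped that of the next. These intervals are not adjusted for the number of genes. For 90% of all genes the difference lay between -0.62 and 0.95, and the 7 genes that rose all lay above this range.

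**Figure D2:**
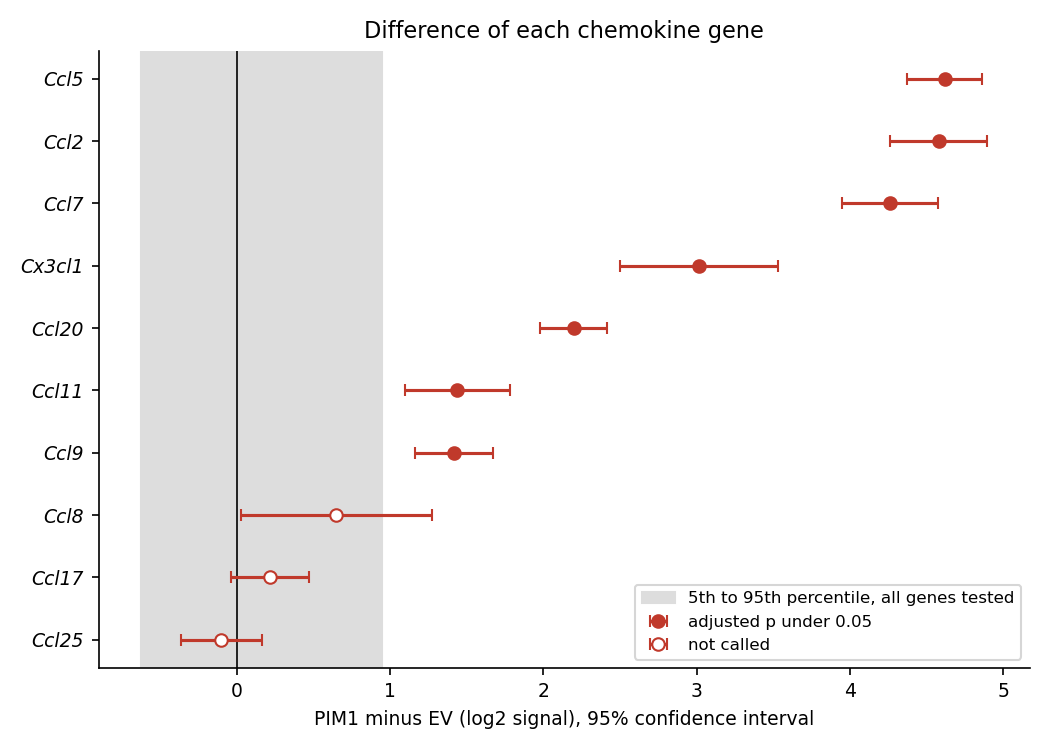
Difference of log2 signal, PIM1 minus EV (horizontal axis), of the 10 chemokine genes in falling order, with 95% confidence intervals and n = 3 arrays in each group. Filled points passed adjusted p under 0.05, open points did not, and the grey band spans the 5th to the 95th percentile of all genes tested. Ccl5, Ccl2 and Ccl7 lie above 4, and Ccl8, Ccl17 and Ccl25 lie inside the band.

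Most of these genes sit in clusters with other chemokine genes, and genes next to each other carried unequal differences. Gene order was taken from RefSeq, leaving out genes without a tested probe set. On chromosome 11 the order Ccl2, Ccl7, Ccl11, Ccl12, Ccl8 and Ccl1 carried differences of 4.58, 4.26, 1.44, -0.28, 0.65 and -0.07. The first 3 rose, and Ccl12, Ccl8 and Ccl1 did not pass. The flanking genes on both sides, Asic2 (-0.07), 1700071K01Rik (-0.40), Tmem132e (-0.09) and Cct6b (-0.18), did not pass either. In the other cluster of chromosome 11, Ccl5 and Ccl9 rose by 4.62 and 1.42, whereas Ccl6, Ccl3 and Ccl4, which follow them, differed by 0.08, -0.01 and -0.46 and did not pass. Ccl3 and Ccl4, the macrophage inflammatory proteins, read 2.86, 2.45 and 2.75, and 3.55, 3.41 and 3.60, on the PIM1 arrays, against 2.53, 2.93 and 2.63, and 3.79, 4.56 and 3.59, on the EV arrays. Beside this cluster Taf15, an RNA-binding protein gene, fell by 0.59 (limma adjusted p = 0.00566), and Heatr9, Wfdc17 and Wfdc18 did not pass. On chromosome 8 Cx3cl1 rose between Ccl22 (-0.14) and Ccl17 (0.22). The flanking genes Arl2bp (-0.06), Pllp (-0.22), Ciapin1 (0.40) and Coq9 (0.28) did not pass. For Ciapin1 and Coq9 the lowest PIM1 array exceeded the highest EV array (limma adjusted p = 0.0509 and 0.119). Ccl20 on chromosome 1 and Ccl25 on chromosome 8 have no chemokine neighbour. The chemokine genes of a cluster are related in sequence, and cross-hybridization between their probes was not tested.

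**Figure D3:**
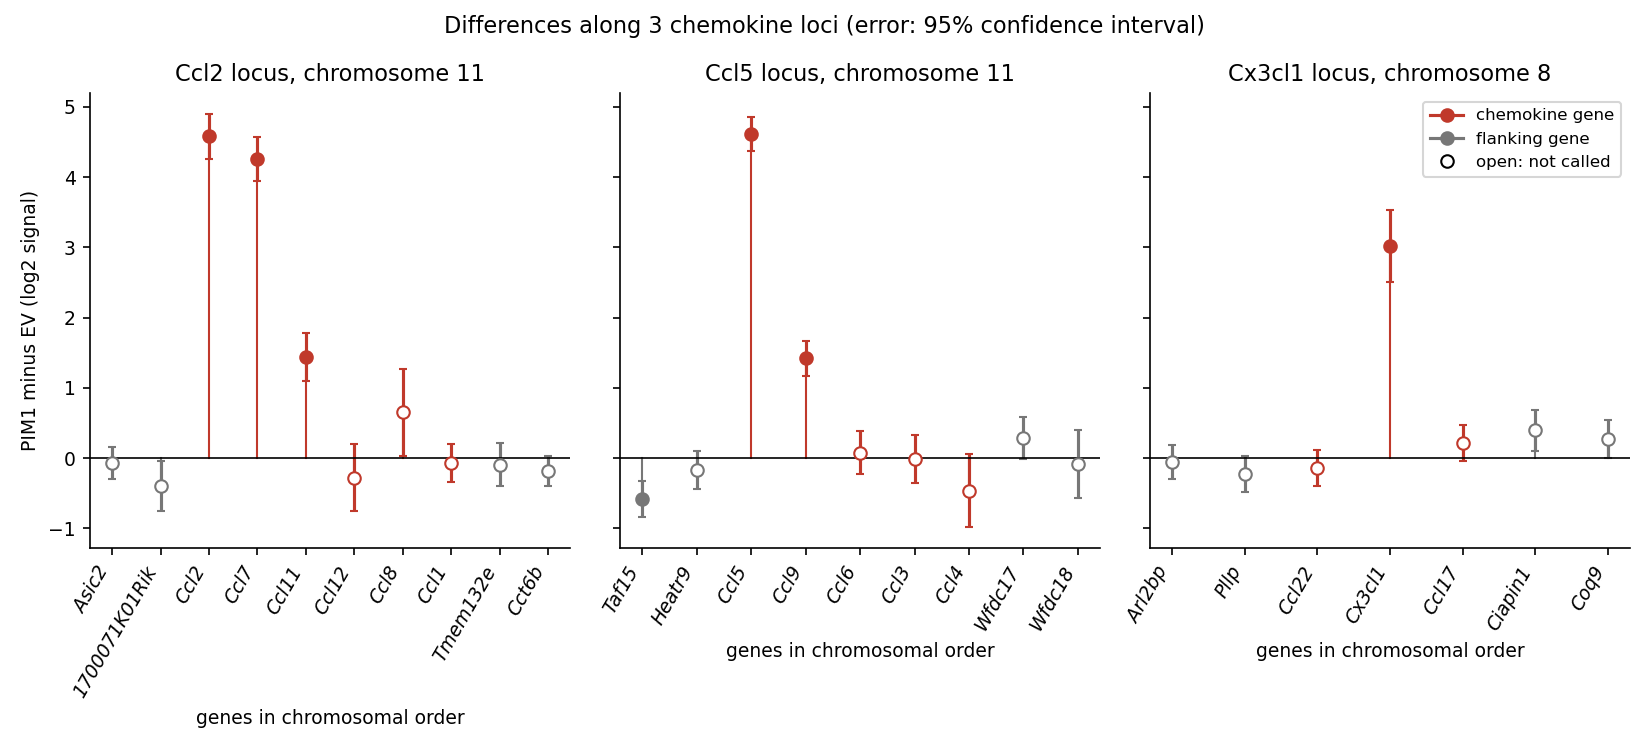
Difference of log2 signal, PIM1 minus EV (vertical axis), of chemokine genes (red) and the nearest 2 tested genes on each side (grey) in chromosomal order at 3 loci, with 95% confidence intervals. Filled points passed adjusted p under 0.05. Ccl2, Ccl7 and Ccl11, Ccl5 and Ccl9, and Cx3cl1 are the filled red points, next to open ones in the same cluster.

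Of 11 other CC and XC chemokine genes measured, 1 rose and 0 fell, against 16.1% and 10.9% of all genes. Their median difference was -0.14 (limma, 1 higher and 2 lower at an unadjusted p under 0.05). This median was -0.02 after quantile normalization, -0.03 with cyclic loess and -0.09 without EV replicate 3. The mean of each of the 11 over the 6 arrays lay below the median of all genes. The one that rose was Ccl27a, a skin chemokine, which read 4.30, 4.83 and 4.70 in PIM1 and 3.20, 3.60 and 2.96 in EV (difference 1.35, limma adjusted p = 0.00139). A dimmer probe set of Ccl27a differed by 0.07 and did not pass (limma adjusted p = 0.888 over all probe sets), and near-identical copies of this gene in the mouse genome make its signal uncertain. Ccl22, the other ligand of Ccr4 beside Ccl17, read 2.80, 2.79 and 2.79 in PIM1 and 3.11, 2.92 and 2.78 in EV and did not pass. Ccl19, Ccl21a and Ccl21b were not analysed here, since their probe sets carry several symbols.

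The receptors of these ligands lay mostly at low signal. Of 17 receptor genes measured 2 rose and 1 fell, against 16.1% and 10.9% of all genes. Their median difference of -0.11 was -0.02 after quantile normalization and turned to 0.01 with cyclic loess. Ackr3, an atypical receptor that scavenges CXC chemokines, averaged 5.66 ± 0.09 in PIM1 and 3.87 ± 0.16 in EV (SD, n = 3 each), a rise of 1.79 (limma adjusted p = 1.94e-05). Ccrl2, which binds chemerin and does not signal to chemokines in the usual way, rose by 1.30, with 4.16, 4.35 and 4.29 in PIM1 and 3.28, 2.51 and 3.11 in EV (limma adjusted p = 0.00155). Ccr7, the receptor that guides cells to lymph nodes, fell by 0.42, with 3.73, 3.65 and 3.72 in PIM1 and 4.16, 4.18 and 4.03 in EV (limma adjusted p = 0.0137), and did not pass without PIM1 replicate 2 (-0.39, limma adjusted p = 0.0612). None of the 3 is a signalling receptor for a chemokine gene that rose.

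Signalling receptors of the risen ligands were looked at for their role, after their values were seen. Ccr2 averaged 2.34 in PIM1 and 2.21 in EV, Ccr1 2.10 in PIM1 and 2.21 in EV, Ccr3 1.46 in PIM1 and 1.70 in EV, and Ccr6 2.29 in PIM1 and 2.52 in EV, and none of these 4 passed. Cx3cr1, the receptor of Cx3cl1, read 4.04, 4.46 and 4.33 in PIM1 and 4.46, 4.86 and 5.16 in EV. Its groups lay next to each other without overlap, and the difference of -0.54 did not pass (limma adjusted p = 0.0667). Cx3cr1 passed after quantile normalization (-0.66, limma adjusted p = 0.0433), among the brighter genes alone (limma adjusted p = 0.0353), with the replicate number as a block (limma adjusted p = 0.0271) and without EV replicate 1 (-0.73, limma adjusted p = 0.0174).

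Proteases and cofactors that trim or shed chemokines were measured for 11 genes, of which 6 rose and 1 fell, with a median difference of 0.37 (0.90 among the brighter genes alone). Over all genes 16.1% rose and 10.9% fell. Mmp2, a gelatinase that can cut Ccl7, read 10.29, 10.34 and 10.23 in PIM1 and 7.13, 6.91 and 6.93 in EV, a rise of 3.30 (limma adjusted p = 5.53e-07). The collagenase gene Mmp13 rose by 4.61 and the gelatinase gene Mmp9 by 1.71. Adam17, which releases Cx3cl1 after stimulation, rose by 0.95, with 8.37, 8.33 and 8.55 in PIM1 and 7.37, 7.54 and 7.49 in EV (limma adjusted p = 0.000366). Adam10, which releases it constitutively, read 9.64, 9.60 and 9.81 in PIM1 and 9.56, 9.52 and 9.58 in EV, a difference of 0.13 (interval -0.10 to 0.36) that did not pass. The iRhom genes, whose products carry Adam17 to the surface, went opposite ways, since Rhbdf2 rose by 0.84 and Rhbdf1 fell by 0.78 (limma adjusted p = 0.00839 and 0.00188). The remaining rise, of Mmp14 (0.37), was lost after quantile normalization, with the replicate block and without PIM1 replicate 1 or 2 (limma adjusted p = 0.103, 0.0507, 0.0789 and 0.0611). Mmp12, the macrophage elastase gene, passed as a fall without PIM1 replicate 3 (-0.44, limma adjusted p = 0.0454).

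Of 21 genes for transcription factors, their inhibitors and mRNA decay factors that act on chemokine genes, 18 rose and 0 fell, with a median difference of 1.09 (limma, 1 lower at an unadjusted p under 0.05). Over all genes 16.1% rose and 10.9% fell. All 21 had a mean signal above the median of all genes. Of the 11090 genes above that median, fitted alone, 3831 rose and 2075 fell. Cebpb and Cebpd, C/EBP factors of the acute-phase response, rose by 2.29 and 2.81. Nfkbie, an inhibitor of NF-kappaB, rose by 2.20 and Stat6, the factor downstream of interleukin-4, by 1.56 (limma adjusted p at most 1.06e-05 for these 4). The NF-kappaB subunit gene Rela read 9.57, 9.51 and 9.62 in PIM1 and 9.36, 9.44 and 9.46 in EV and did not pass (difference 0.14, limma adjusted p = 0.3). Rel, which also did not pass, differed by -0.37 and passed as a fall with a trended prior, quantile normalization, cyclic loess, the brighter genes alone or without PIM1 replicate 3 (limma adjusted p between 0.0214 and 0.0478). Irf1, an interferon regulatory factor that rose by 0.42, was lost after quantile normalization and without PIM1 replicate 2 (limma adjusted p = 0.0838 and 0.0502). Nfkb1 and Irf5 were not analysed here.

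**Figure D4:**
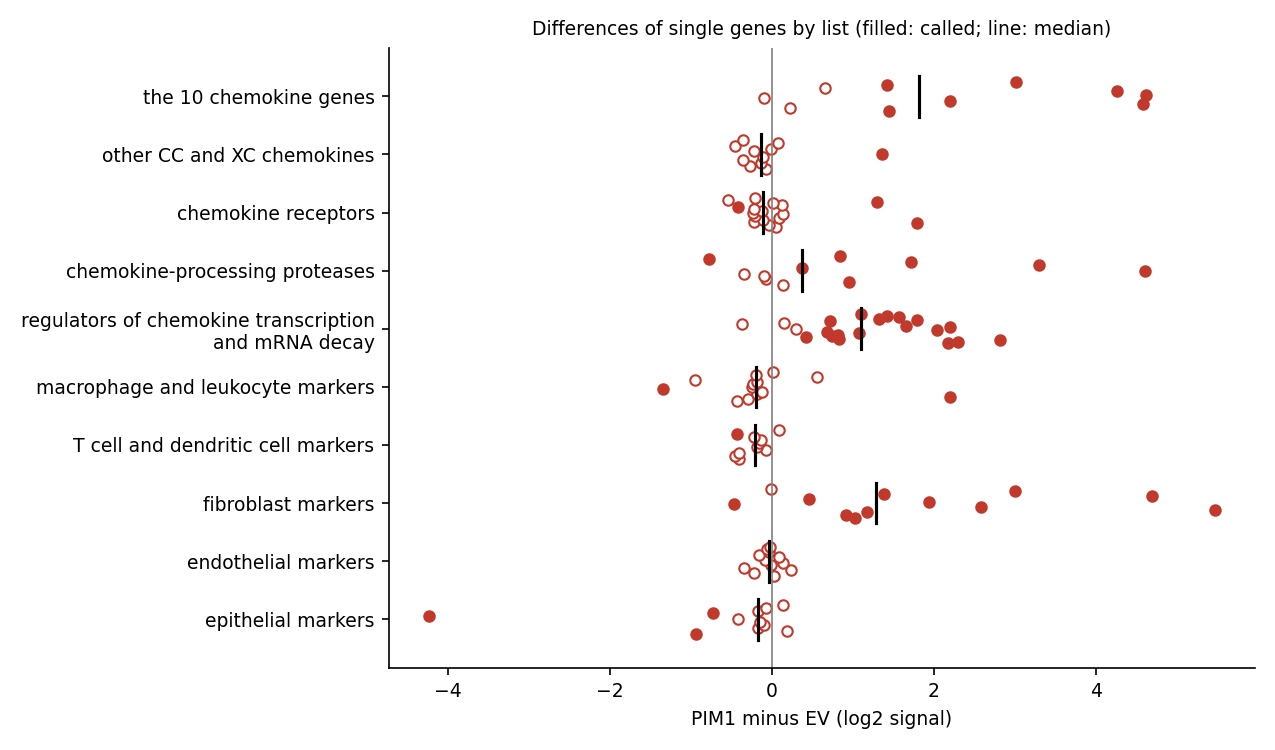
Difference of log2 signal, PIM1 minus EV (horizontal axis), of single genes in the chemokine set, in related gene lists and in cell type marker lists, with 1 point for each measured gene and a black line at each list's median. Filled points passed adjusted p under 0.05. The medians of the 10 chemokine genes, the regulators and the fibroblast markers lie at 1.82, 1.09 and 1.28, and those of the other lists lie between -0.21 and 0.37.

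Leukocytes, endothelial cells and fibroblasts also make these chemokines, and in bulk RNA fewer cells of a type and less RNA per cell cannot be told apart. Among 13 leukocyte markers, mainly of macrophages, 1 passed in each direction, and 2 were higher and 2 lower at an unadjusted p under 0.05 (limma). Over all genes, the background for each list in this paragraph, 16.1% rose and 10.9% fell. The mean signal of the 13 was 3.14 to 3.21 on the PIM1 arrays and 3.24 to 3.31 on the EV arrays. Ptprc, the pan-leukocyte marker, averaged 1.87 in PIM1 and 2.07 in EV, and Adgre1, the macrophage marker, 1.89 in PIM1 and 2.32 in EV, both among the low signals of the array. Neither passed, but Adgre1 did without EV replicate 3 (-0.59, limma adjusted p = 0.0259). The lysozyme gene Lyz2 read 2.42, 1.90 and 2.49 in PIM1 and 3.57, 2.07 and 4.02 in EV and did not pass (-0.96, limma adjusted p = 0.155), but passed as a fall without EV replicate 2 (-1.53, limma adjusted p = 0.00220) and with the replicate block (limma adjusted p = 0.0343). The macrophage marker Mrc1 read 3.36, 3.26 and 3.96 in PIM1 and 3.20, 2.99 and 2.72 in EV, without overlap. Its difference of 0.55 did not pass (limma adjusted p = 0.0788). The marker that rose was the lipopolysaccharide co-receptor gene Cd14 (2.20), and the one that fell was the growth factor receptor gene Csf1r, by 1.35. Of 10 T cell and dendritic cell markers 0 rose and 1 fell (Siglech, by 0.43, lost after quantile normalization, cyclic loess or without PIM1 replicate 1 at limma adjusted p = 0.0518, 0.0534 and 0.0702). At an unadjusted p under 0.05, 0 of these 10 were higher. Of 12 endothelial markers 0 rose and 0 fell (limma, 0 higher and 1 lower at an unadjusted p under 0.05), and their median difference was -0.03. Without EV replicate 3 the endothelial gene Emcn passed as a fall (-0.52, limma adjusted p = 0.0128).

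Fibroblast markers moved with the chemokine genes. Of 12, 10 rose and 1 fell, with a median difference of 1.28 (1.94 among the brighter genes alone), and their mean signal was 8.13 to 8.19 in PIM1 and 6.29 to 6.33 in EV. Over all genes 16.1% rose and 10.9% fell, and 3831 of the 11090 brighter genes rose when fitted alone. Of the 12 markers 9 were among those brighter genes. The matrix genes Dcn, Postn and Fbln1 rose by 5.48, 3.00 and 1.94 and the growth factor receptor gene Pdgfra by 4.70. Fap, a surface protease, fell by 0.47 at a low signal, a call lost after quantile normalization, cyclic loess or without PIM1 replicate 1 or 2 (limma adjusted p between 0.0516 and 0.0553). The rise of Lum, a matrix proteoglycan gene at low signal (0.46, limma adjusted p = 0.0230), was lost over all probe sets and without PIM1 replicate 2, PIM1 replicate 3 or EV replicate 3 (limma adjusted p = 0.0538, 0.0794, 0.0734 and 0.0606). Of 11 epithelial markers 0 rose and 3 fell, namely the keratin genes Krt18 (-4.24) and Krt19 (-0.73) and the E-cadherin gene Cdh1 (-0.94), and at an unadjusted p under 0.05 0 were higher. The other 8, among them the keratin gene Krt8 (-0.08), did not pass, and over all genes 10.9% fell. A dimmer Cdh1 probe set differed by 0.15 and did not pass, whereas a dimmer Krt18 probe set differed by -1.61 (limma adjusted p = 0.533 and 0.000841 over all probe sets). Krt19 was lost after quantile normalization, over all probe sets or without PIM1 replicate 1, 2 or 3 (limma adjusted p between 0.0516 and 0.107), and the keratin gene Krt14 passed as a fall with the replicate block (limma adjusted p = 0.0321). The epithelial marker Epcam was low in both groups, at 2.41, 2.36 and 2.28 in PIM1 and 2.51, 2.47 and 2.51 in EV, although the cells are labelled epithelial. The part of these marker shifts in the chemokine differences was not tested.

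The genes whose profile was nearest to the 3 largest chemokine rises were found over the 6 arrays, after subtracting each gene's EV mean, by the root mean square difference. For Ccl5 they were Il6 (0.15) and Pdgfra (0.16), with differences of 4.41 and 4.70. For Ccl2 they were Penk (0.18) and Ccl5 (0.20), and for Ccl7 they were Adamts9 (0.13) and Fabp4 (0.17). Penk, Adamts9 and Fabp4 had differences of 4.42, 4.29 and 4.14, and the likeness of any gene here depends on the size of its group difference.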

How the data were processed

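RNA of 6 samples was hybridized to mouse whole-transcript arrays from Affymetrix. The authors deposited 1 value for each of 41345 probe sets and array, taken here as log2 signals from their range (0.34 to 13.0), since the sources used here do not give the log base, the background correction, the summarization or the normalization. The submitters' processing notes name the tool Affymetrix Expression Console. The authors' normalization was kept.

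The platform annotation gave 1 gene symbol for 23521 probe sets, several for 1814 and none for 16010. Of the 23521, 23328 matched RefSeq GRCm38.p6 by Entrez identifier. For 1082 genes with several probe sets the brightest on average was used, leaving 22180 genes. Groups came from sample titles. A moderated linear model of limma 3.58.1 (R 4.3.3), two-sided and with no covariate, was fitted to all genes, with Benjamini-Hochberg adjustment and a threshold of 0.05. The scripts were tested on simulated data. The number of arrays limits the precision. Alternatives were other priors, scalings, probe set rules, a brightness filter, a replicate block and leaving out each array.

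The members, lists and tests were chosen with earlier results of these data known. Named genes are all members, up to 4 called genes with the smallest p per list with at least 1 in each direction, Pim1, and the nearest profiles. Genes flanking the loci and other list genes named were chosen after their values were seen.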

Additional observations from a re-analysis of the deposited data

How the results depend on the processing

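The 7 chemokine rises passed under all 14 alternatives run, with Ccl5 between 4.48 and 4.66, Ccl2 between 4.37 and 4.66, Ccl7 between 4.10 and 4.38 and Cx3cl1 between 2.85 and 3.23. Between 7 and 8 chemokine genes were called higher and 0 lower in each. Ccl8 and Ccl17 could not be tested among the brighter genes, as their means lie below the filter. Deviations of same-numbered arrays correlated at 0.06, -0.03 and 0.01, and those of differently numbered arrays at -0.06 to 0.05. With 3 arrays in each group these values cannot show whether the arrays were paired. With the replicate block 3218 genes rose and 2103 fell, against 3575 and 2420 without it, and the 7 chemokine calls held. Testing all probe sets left 2820 rises and 1572 falls. There both the variance prior and the adjustment covered all 41345 probe sets, and the cause of the drop was not tested. Leaving out 1 array gave 2704 to 3249 rises and 1463 to 2224 falls. Falls were fewest without PIM1 replicate 2 or 1 (1463 and 1490), and the cause was not tested. The receptor median was 0.0068 with cyclic loess. The endothelial median was 0.075 after quantile normalization, 0.084 with cyclic loess, 0.23 among the brighter genes, where it rests on 1 gene, and between -0.086 and 0.0041 with 1 array left out, above 0 without PIM1 or EV replicate 3 (0.0030 and 0.0041). The cause of these turns was not tested. Low signals limit what Ccl8, Ccl17 and most receptors can show.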

Other observations

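The order of the arrays within the PIM1 group was not the same for all chemokine genes. PIM1 replicate 3 had the lowest PIM1 signal for Ccl5, Ccl2, Ccl7, Cx3cl1 and Ccl17, and the highest for Ccl11, Ccl9, Ccl8 and Ccl25. For Ccl8 this array (3.77) stood 0.73 above the next, and for Cx3cl1 (7.48) it stood 0.43 below the next.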
